A study of Mus musculus with 6 samples.

Results

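Gasdermins are proteins that form pores in membranes once a protease cuts them, and the lytic death that follows is called pyroptosis. In the canonical route an inflammasome, a sensor complex built on the adaptor ASC, activates caspase-1, which cuts gasdermin D and matures interleukin-1β and interleukin-18. In the noncanonical route mouse Casp4, also known as caspase-11, senses intracellular lipopolysaccharide and cuts the same gasdermin. Gasdermin E is another pore former of the family, and NINJ1 completes the rupture of the plasma membrane after pores have formed. The gasdermin C genes of the mouse are known for expression in intestinal epithelium and for induction by type 2 cytokines during worm infection.

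The 9 genes described here are Gsdmc, Gsdmc2, Gsdmc3 and Gsdmc4, Gsdmd, Gsdme, the inflammatory caspase genes Casp1 and Casp4, and Ninj1, out of 55446 genes per the authors' deposited table. They were chosen by name, with results of the same comparison already known, so their values in it are a description. RNA came from ileal crypts of 3 Adar fl/fl mice (floxed Adar alleles without Cre) and 3 Adar iΔgut mice, which carry the same alleles and the VilCreERt2 transgene, a tamoxifen-activated Cre under the villin promoter that acts in intestinal epithelium but not in other cells of a crypt preparation. Tamoxifen was given to all 6 mice, sampled at day 3. The labels give no age or sex. The series concerns the bowel after loss of ADAR, an enzyme that edits adenosines within double-stranded RNA.

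The authors' deposited table gives 1 pooled FPKM (fragments, scaled to transcript length and library size) for a condition named con and 1 for a condition named TMX, so no spread between mice can stand beside a value and the depth of each library is unknown. Neither name states a genotype. Both genotypes received tamoxifen, so the reading of TMX as the Cre-carrying mice rests on elimination, and Adar itself was at 19.5 FPKM in con against 52.0 FPKM in TMX (q = 0.0575) per the authors' deposited table. Adar was thus higher, though not at q under 0.05, where its deletion would be read, and directions below are those of the condition labelled TMX only. The locus given for Adar, chr3:89715022-89764632, was wider than the annotated gene, and the part of an overlapping gene in its value was not tested. A call means a q under 0.05 (the authors' Benjamini-Hochberg adjusted p-value) per the authors' deposited table. Of 15762 tested genes, 12.3% were called, 6.6% higher and 5.7% lower in TMX.

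The markers of the labelled tissue were present in both conditions, and markers of the epithelium and of other cells differed between them. In the authors' deposited table the 8 epithelial markers summed to 2529 FPKM in con against 1632 FPKM in TMX, with none at 0. The keratin gene Krt18 was the only one of them called, beside 12.3% of all tested genes. It rose from 68.0 to 162 FPKM (q = 0.00281) per the authors' deposited table. The 8 stem and Paneth cell markers of the crypt base summed to 15244 FPKM in con against 10785 FPKM in TMX per the authors' deposited table. Of these 8, the stem cell marker Olfm4 fell from 277 to 18.2 FPKM (q = 0.00112) and the other 7 were not called per the authors' deposited table, beside 12.3% called over all tested genes. The 14 enterocyte markers summed to 19898 FPKM in con against 5257 FPKM in TMX, and 7 of them were called lower per the authors' deposited table, beside 5.7% of all tested genes. The 19 myeloid markers summed to 34.03 FPKM in con against 496 FPKM in TMX per the authors' deposited table. Of these, 13 were called higher, beside 6.6% of all tested genes, and Ly6g, a neutrophil marker, was listed at 0 in con. Ptprc, a leukocyte gene with much of the con sum, was the only 1 lower, at 16.6 against 12.9 FPKM (q = 0.649) per the authors' deposited table. S100a8 (0.0559 against 104 FPKM) and S100a9 (0.402 against 72.1 FPKM) were large in the TMX sum but not called (q = 0.547 and 0.553) per the authors' deposited table. Among the called ones, Ly6g, Cxcr2, Adgre1, Fcgr3, C1qa, C1qb and Mpeg1 were below 0.592 FPKM in con per the authors' deposited table. No tested gene was below that value in its higher condition, so these genes entered the authors' test through TMX alone and had to differ. Itgam, Cd68, Lyz2, Cd14, Tyrobp and Fcer1g were above 0.592 FPKM in con and were also called higher. The 15 T and NK cell markers summed to 357 and 60.6 FPKM, and the 13 stromal and endothelial markers to 19.9 and 221 FPKM, in con and TMX per the authors' deposited table. Of 14 tested T and NK cell markers 6 were called lower, beside 5.7% of all tested genes, per the authors' deposited table. Of 12 tested stromal and endothelial markers 7 were called higher, beside 6.6% of all tested genes, per the authors' deposited table. None of the lymphocyte or stromal markers was at 0. The part of these shifts in the values below was not tested, and in bulk tissue fewer cells of a type and less RNA per cell cannot be told apart.

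Gsdmc2, Gsdmc3 and Gsdmc4 were well above 0 in con, where Gsdmc2 was the highest of the 9 genes, and were close to 0 in TMX. Gsdmc2 (ENSMUSG00000056293.12, GRCm38 chr15:63824346-63845177, minus strand) was at 171 FPKM in con against 0.117 FPKM in TMX per the authors' deposited table. Gsdmc4 (ENSMUSG00000055748.12, chr15:63891264-63912297, minus strand) was at 149 FPKM in con against 0.0852 FPKM in TMX per the authors' deposited table. Gsdmc3 (ENSMUSG00000055827.13, chr15:63857724-63878558, minus strand) was at 44.2 FPKM in con against 0.0174 FPKM in TMX per the authors' deposited table. All 3 were therefore high in con, and in TMX all 3 lay below 0.592 FPKM, the least that any tested gene reached in its higher condition. They entered the authors' test through con alone, so a tested gene of this kind had to differ.

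**Figure D1:**
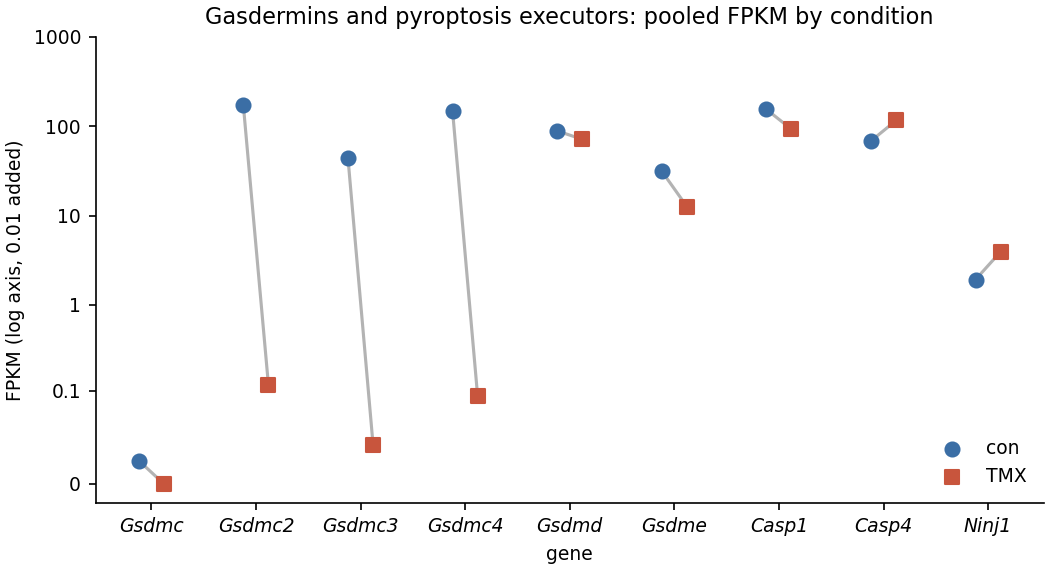
Pooled FPKM of the 9 genes in con (circles) and TMX (squares), on a log axis with 0.01 FPKM added; each point is 1 value per condition from the authors' deposited table and no error can be drawn. Gsdmc2, Gsdmc3 and Gsdmc4 lie at 44.2 to 171 FPKM in con and at 0.117 FPKM or less in TMX, whereas Gsdmd, Gsdme, Casp1, Casp4 and Ninj1 stay within a 2.49-fold difference.

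The ratios of these 3 genes were near the extreme among tested genes above 0 in both conditions, although only 1 was called. Genes listed at 0 in either condition are not ranked, and the ratios of the 3 rest on near-zero TMX values. The plain ratio of con to TMX was 1462 for Gsdmc2, 1745 for Gsdmc4 and 2535 for Gsdmc3. Among 15570 tested genes above 0 in both conditions, only Trbv5, a T cell receptor segment at 1.72 FPKM in con per the authors' deposited table, had a lower ratio of TMX to con than Gsdmc3, Gsdmc4 and Gsdmc2, which took the ranks 2, 3 and 4. The next was Slc5a4a, a sugar transporter family gene, with a ratio of con to TMX of 299.8. With 1 FPKM added to both values, the deposited log2 fold change was -7.26 for Gsdmc2, -7.11 for Gsdmc4 and -5.47 for Gsdmc3.

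Gsdmc2 fell (p = 1e-04, q = 0.00200) per the authors' deposited table. Gsdmc4 had p = 0.0105 and q = 0.0743, and Gsdmc3 p = 0.248 and q = 0.564 per the authors' deposited table. The order of the p-values did not follow the order of the ratios, since Gsdmc3 had the largest ratio and the highest p-value of the 3. Of 28 tested genes with at least 10 FPKM in con and under 1 FPKM in TMX, the authors' deposited table called 12 and left 16 without a call. Gsdmc3 and Gsdmc4 were among the 16, with genes outside the family. Among the 20 protein-coding ones, 11 were called. Since the 28 were picked by these same values, nothing is read from their share beside the 12.3% called over all tested genes.

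**Figure D2:**
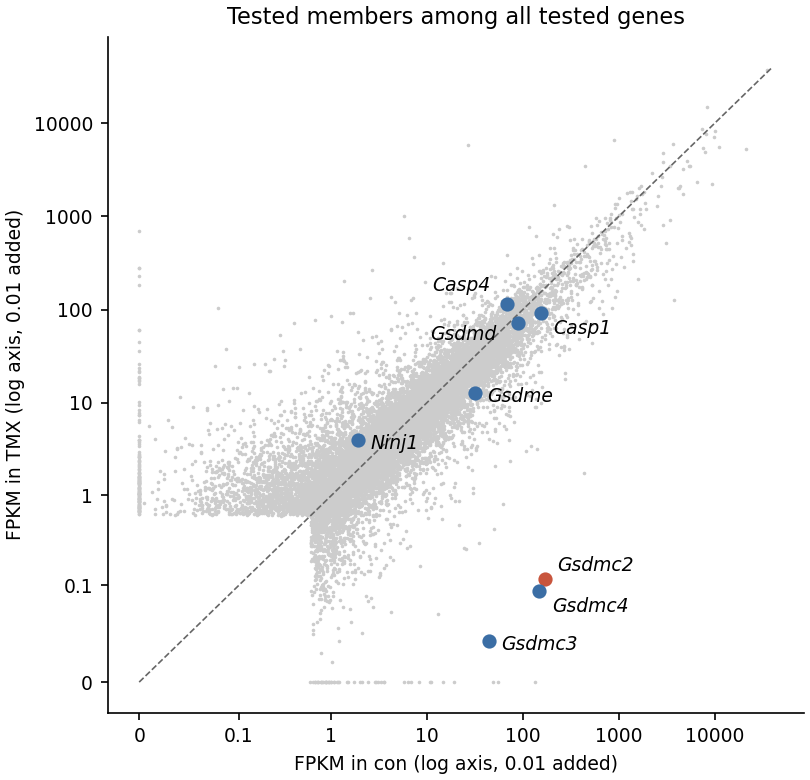
FPKM in TMX against FPKM in con for the 15762 tested genes (grey), both on log axes with 0.01 FPKM added; the dashed line marks equal values, and the 8 tested members are named, red where the authors' deposited table made a call and blue where it did not. Gsdmc2, Gsdmc3 and Gsdmc4 lie far below the line, apart from most tested genes of similar con level.

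The remaining genes of the cluster carried little signal in the crypts. Gsdmc (ENSMUSG00000079025.9, chr15:63775968-63808759, minus strand) was at 0.00824 FPKM in con, was listed at 0 in TMX and was not tested, per the authors' deposited table. The pseudogene Gsdmcl-ps had 2.43 FPKM in con and a listed 0 in TMX (q = 0.108) per the authors' deposited table. Gsdmcl2, another pseudogene, had 0.0313 FPKM in con and a listed 0 in TMX, and Gsdmcl1 was listed at 0 in both per the authors' deposited table. The pseudogene 1700065I16Rik, between Gsdmc and Gsdmc2, had 0.0454 FPKM in con and a listed 0 in TMX per the authors' deposited table. It was counted with the neighbours and not in the sums or shares of the cluster. Summed over the 4 gasdermin C genes, the cluster held 364 FPKM in con against 0.219 FPKM in TMX. Of the FPKM of all genes with a symbol beginning Gsdmc in con, Gsdmc2 took 46.6%, Gsdmc4 40.6% and Gsdmc3 12.1%. In TMX the shares were 53.2%, 38.8% and 7.94%. The order of the 3 genes was the same, but the TMX shares divide near-zero values, so little can be read from it.

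These genes are near-identical copies, which bears on how far their single values can be separated. The coding sequences of Gsdmc2 and Gsdmc3, taken from the GENCODE vM21 transcript with the longest coding sequence of each gene, were identical at 97.1% of alignment columns. Columns with gaps, also at the ends, count as not identical. Gsdmc4 was 93.0% identical to each of them, Gsdmc 82.8% to 83.8% identical to the 3 others, and Gsdmd and Gsdme at most 51.5% identical to any gasdermin C gene. Of all stretches of 50 bases in the Gsdmc2 transcript, 48.5% also occurred, base for base, in a transcript of another gene, and the share was 46.9% for Gsdmc3, 39.0% for Gsdmc4 and 16.4% for Gsdmc. At 100 bases the shares were 28.6% for Gsdmc2, 30.5% for Gsdmc3 and 20.2% for Gsdmc4. The genes that shared these stretches were other gasdermin C genes. For Gsdmd, Gsdme, Casp1, Casp4 and Ninj1 no stretch of 50 bases was shared with another gene. The sources used here do not say how reads shared by copies were divided, so the values of Gsdmc2, Gsdmc3 and Gsdmc4 are less certain singly than their sum, and the part of the copies in the q-values was not tested.

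Only 2 genes beside the cluster were tested, both on the same side, and neither was called. The 4 gasdermin C genes span 136 kb and lie on the same strand, in the order Gsdmc, Gsdmc2, Gsdmc3 and Gsdmc4. Of 17 other annotated genes within 500 kb, 2 were tested and 0 were called per the authors' deposited table. Over all tested genes 12.3% were called, so 2 genes are too few to read from. Fam49b, a regulator of the actin cytoskeleton that begins its annotated span 16.8 kb past Gsdmc4, was at 35.2 FPKM in con against 29.9 FPKM in TMX (q = 0.788) per the authors' deposited table. Asap1, an Arf GTPase-activating protein gene, was at 9.72 against 16.8 FPKM (q = 0.532) per the authors' deposited table. No tested gene lay within 500 kb on the other side.

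**Figure D3:**
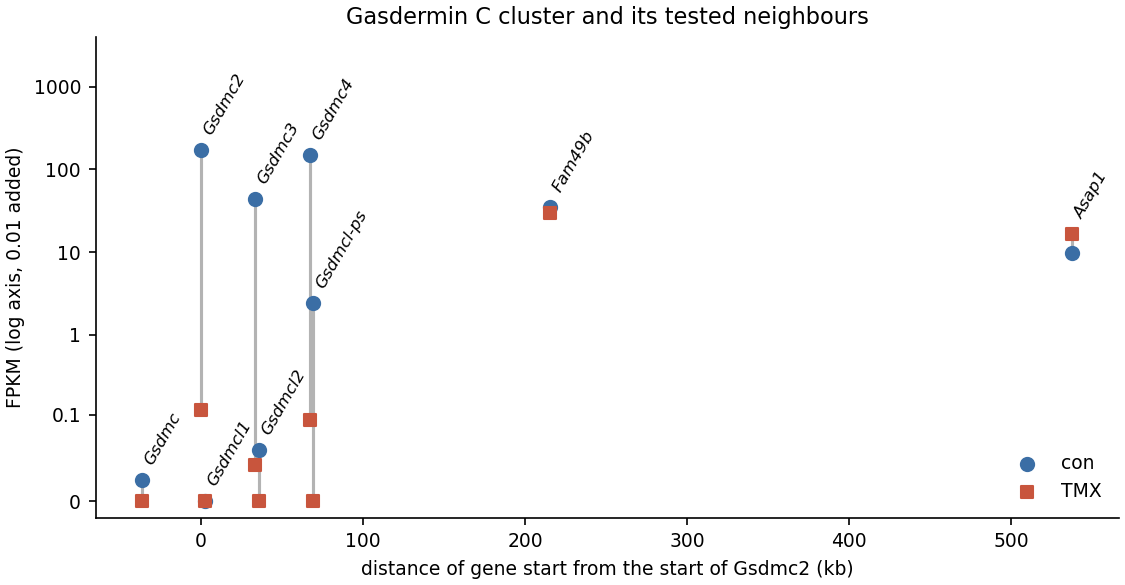
FPKM in con (circles) and TMX (squares) of every gene with a symbol beginning Gsdmc and of the tested genes within 500 kb, against the distance of each gene's start from that of Gsdmc2, on a log axis with 0.01 FPKM added. The points of Gsdmc2, Gsdmc3 and Gsdmc4 are far apart, and those of Fam49b (35.2 and 29.9 FPKM) almost coincide.

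The promoter of Gsdmc3 is shown because that gene had the largest ratio of con to TMX among the 3 genes above, and those of Casp1 and Casp4 because these neighbours had differences of opposite sign. RefSeq sequences on GRCm38.p6 were given for 5 of the 9 genes, namely Gsdmc3, Gsdme, Casp1, Casp4 and Ninj1. Each line holds the 250 bases upstream of the transcript start, 5′ to 3′ on the gene's strand, and capitals mark motif matches.
Gsdmc3 (chr15:63878559-63878808, minus strand): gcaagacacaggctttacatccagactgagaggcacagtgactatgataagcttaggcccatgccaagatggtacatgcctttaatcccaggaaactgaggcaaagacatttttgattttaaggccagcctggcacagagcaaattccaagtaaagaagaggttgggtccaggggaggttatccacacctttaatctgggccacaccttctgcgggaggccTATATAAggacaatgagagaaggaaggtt
Casp4 (chr9:5308599-5308848, plus strand): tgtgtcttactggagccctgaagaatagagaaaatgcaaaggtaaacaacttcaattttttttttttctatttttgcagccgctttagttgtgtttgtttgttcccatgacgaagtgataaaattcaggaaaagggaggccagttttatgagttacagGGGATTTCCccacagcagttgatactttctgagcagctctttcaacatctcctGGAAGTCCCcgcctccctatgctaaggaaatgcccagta
Casp1 (chr9:5298267-5298516, plus strand): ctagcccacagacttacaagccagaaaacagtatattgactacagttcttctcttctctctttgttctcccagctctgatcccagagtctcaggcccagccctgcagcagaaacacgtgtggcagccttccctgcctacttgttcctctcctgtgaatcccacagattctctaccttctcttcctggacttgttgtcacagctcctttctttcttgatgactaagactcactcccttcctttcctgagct

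The motifs were picked with these sequences in view and were searched on both strands. A TATA box (TATANAA) matched in Gsdmc3 from base -29 to base -23, counted back from the transcript start, and 10.4% of 32851 promoter windows of the same length in the RefSeq table hold this motif. An NF-kB type motif (GGGNNTTCC) matched at 2 places in Casp4, from -92 to -84 and, on the opposite strand, from -39 to -31, and 4.98% of the windows hold it. A GAS motif (TTCNNNGAA) and the core of the interferon-stimulated response element (GAAANNGAA) matched in none of the 5 promoters, against 7.02% and 7.13% of all windows. No motif matched in Casp1, Gsdme or Ninj1. The motifs do not overlap where they matched, and a match is a description of letters in this window, not of a factor's binding.

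By the fixed measure of likeness, the distance in log2(FPKM + 1) over the 2 pooled conditions, the genes closest to Gsdmc2 were Gsdmc4 at 0.20, Rprl3 at 0.37 and Plb1 at 1.60 log2 units. Rprl3, a small noncoding ribozyme RNA gene, had 135 FPKM in con and a listed 0 in TMX, and Plb1, a brush border phospholipase, was at 62.0 against 0.803 FPKM per the authors' deposited table. Both had q = 0.00112 per the authors' deposited table.

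Of the 14 enterocyte markers 13 were lower in TMX, by smaller factors, and the fatty acid binding protein gene Fabp1 was at 222 against 362 FPKM (q = 0.221) per the authors' deposited table. The largest ratio of con to TMX among them was 44.7, for the lactase gene Lct, at 21.4 FPKM in con against 0.479 FPKM in TMX per the authors' deposited table. Their median log2 difference was -1.99, against 0.05 over all genes tested. Of the 8 epithelial markers, the adhesion gene Epcam had the largest ratio of con to TMX, 2.33, at 869 against 372 FPKM (q = 0.130) per the authors' deposited table. The TMX values of Gsdmc2, Gsdmc3 and Gsdmc4 were thus lower relative to con than those of any enterocyte or epithelial marker listed. These TMX values and that of Lct lay below 0.592 FPKM. Such genes entered the authors' test through con alone, and the size of their ratios rests on near-zero values. With 1 FPKM added to both values, the log2 fold change was -5.47 for Gsdmc3. It was -4.80 for Mep1a, the lowest of the enterocyte and epithelial markers. No test of these differences could be made from pooled values.

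Among genes tied to the type 2 response of the epithelium, the ones that fell were secreted or structural products. The authors' deposited table called 4 of 10 tested genes lower and 0 higher, beside 5.7% lower and 6.6% higher over all tested genes. The median log2 difference of the 10 was -0.53. Sprr2a3, a small proline-rich protein gene, fell from 71.3 to 12.3 FPKM and Clca1, a goblet cell product, from 777 to 183 FPKM (q = 0.00112 and 0.0491) per the authors' deposited table. Retnlb, a goblet cell product of the resistin-like family, fell from 506 to 121 FPKM and the antimicrobial ribonuclease gene Ang4 from 2878 to 815 FPKM (q = 0.00112 and 0.0360) per the authors' deposited table. The receptor subunit gene Il4ra was at 15.2 against 22.9 FPKM, Il13ra1 at 81.7 against 54.3 FPKM, and the transcription factor gene Stat6 at 19.0 against 15.6 FPKM (q = 0.353, 0.277 and 0.743) per the authors' deposited table. Mettl14, an RNA methyltransferase subunit gene, was at 5.12 against 5.09 FPKM (q = 0.993) per the authors' deposited table. The tuft cell marker Dclk1 was at 3.41 against 2.18 FPKM (q = 0.591) per the authors' deposited table.

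Gsdmd, whose protein is the shared substrate of caspase-1 and mouse Casp4, was abundant in both conditions. Gsdmd (ENSMUSG00000022575.5, chr15:75862327-75867408, plus strand) was at 88.7 FPKM in con against 71.2 FPKM in TMX per the authors' deposited table. Its log2 fold change was -0.31 (p = 0.361, q = 0.690) per the authors' deposited table. In con Gsdmc2 was at 1.93 times the FPKM of Gsdmd, whereas in TMX Gsdmd was at 609.8 times that of Gsdmc2. Gsdmd lies on the same chromosome as the gasdermin C cluster, 11.95 Mb away. Of 30 tested genes within 500 kb of it, 1 was called per the authors' deposited table, beside 12.3% over all tested genes. The called gene was the mitochondrial topoisomerase gene Top1mt, which rose from 1.93 to 6.90 FPKM (q = 0.00554) per the authors' deposited table. The nearest tested genes were Zc3h3 at 0.752 against 0.778 FPKM and Naprt, an enzyme gene of NAD synthesis, at 29.0 against 2.78 FPKM (q = 0.978 and 0.0746) per the authors' deposited table.

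Gsdme, the gene of the pore former gasdermin E, was lower in TMX without reaching a call. Gsdme (ENSMUSG00000029821.15, chr6:50188888-50263862, minus strand) was at 31.4 FPKM in con against 12.6 FPKM in TMX per the authors' deposited table. The log2 fold change was -1.25 (p = 0.0694, q = 0.270) per the authors' deposited table. It was the only one of the 9 genes whose locus in the table, chr6:50110241-50263862, was wider than the annotated gene, and the part of an overlapping gene in its value was not tested. The ratio of Gsdmd to Gsdme was 2.82 in con and 5.64 in TMX.

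Of the gasdermin A genes on chromosome 11, Gsdma rose from 0.112 to 0.893 FPKM (q = 0.0430) per the authors' deposited table. Gsdma is known mainly from skin, and it stayed under 1 FPKM. It entered the authors' test through TMX alone, so it had to differ, and it was not called at a q threshold of 0.01. Gsdma2 was at 1.77 against 0.920 FPKM (q = 0.483), and Gsdma3 and Pjvk, the gene of the distant family member pejvakin, were listed at 0 in both conditions per the authors' deposited table. In con the gasdermin signal of the crypts was thus that of Gsdmc2, Gsdmc4, Gsdmd, Gsdmc3 and Gsdme, and in TMX that of Gsdmd and Gsdme.

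Casp1 and Casp4, which encode the proteases of the canonical and noncanonical routes, had differences of opposite sign, and neither was called. Casp1 (ENSMUSG00000025888.5, chr9:5298517-5307265, plus strand) was at 154 FPKM in con against 92.3 FPKM in TMX per the authors' deposited table. Casp4 (ENSMUSG00000033538.13, chr9:5308828-5336783, plus strand) was at 68.3 FPKM in con against 116 FPKM in TMX per the authors' deposited table. Casp1 was thus the higher of the pair in con and Casp4 in TMX. The log2 fold change was -0.74 for Casp1 (p = 0.0219, q = 0.126), and 0.75 for Casp4 (p = 0.0161, q = 0.101) per the authors' deposited table.

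The ratio of Casp4 to Casp1 was 0.443 in con and 1.25 in TMX, and the change of that ratio could not be tested from pooled values. Their sum was 223 FPKM in con against 208 FPKM in TMX. The genes stand head to tail, 1.56 kb apart, and their coding sequences were 57.3% identical, with gap columns counted as not identical, and had no shared stretch of 50 bases. Casp12, a related caspase gene 8.65 kb past Casp4, was at 2.20 against 2.97 FPKM (q = 0.757) per the authors' deposited table. Casp12 was the only other tested gene within 500 kb.

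Ninj1, whose protein ruptures the plasma membrane late in pyroptosis, was the lowest of the tested genes in con. Ninj1 (ENSMUSG00000037966.15, chr13:49187485-49196244, plus strand) was at 1.92 FPKM in con against 3.94 FPKM in TMX per the authors' deposited table. The log2 fold change was 0.76 (p = 0.0618, q = 0.251) per the authors' deposited table. Its paralog Ninj2 was listed at 0 in both conditions per the authors' deposited table.

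Across the 9 genes, 8 were tested, 1 was called and 7 were not. Since these genes were chosen from the same comparison, nothing is read from their share against the 12.3% called over all genes. Before adjustment, 4 of the 8, Gsdmc2, Gsdmc4, Casp4 and Casp1, had a p-value under 0.05, beside 22.8% of all tested genes. Nothing is read from this share either, and Gsdmc2 and Gsdmc4 entered the authors' test through con alone. The order of FPKM in con was Gsdmc2, Casp1, Gsdmc4, Gsdmd, Casp4, Gsdmc3, Gsdme, Ninj1 and Gsdmc. In TMX it was Casp4, Casp1, Gsdmd, Gsdme, Ninj1, Gsdmc2, Gsdmc4, Gsdmc3 and Gsdmc. Which neighbours in either order differ beyond the spread between mice cannot be told from 1 value per condition.

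The inflammasome genes upstream of Casp1 had calls in both directions, with more lower than higher. The authors' deposited table called 2 of 12 tested genes higher and 4 lower, beside 6.6% higher and 5.7% lower over all tested genes. The median log2 difference of the 12 was -0.58. Pycard, the ASC adaptor gene, fell from 254 to 79.3 FPKM and Nlrp6, an epithelial sensor gene, from 23.3 to 7.26 FPKM (q = 0.0326 and 0.00112) per the authors' deposited table. Nlrp9b, a sensor known from ileal epithelium, fell from 60.5 to 21.5 FPKM and Naip5, a flagellin receptor, from 64.8 to 24.3 FPKM (q = 0.0398 and 0.00112) per the authors' deposited table. Against these, the DNA sensor gene Aim2 rose from 19.4 to 61.0 FPKM (q = 0.00200) per the authors' deposited table. Mefv, the pyrin gene, rose from 0.0508 to 1.03 FPKM (q = 0.0274) per the authors' deposited table. Mefv entered the authors' test through TMX alone and so had to differ. It is known from myeloid cells, most of whose listed markers were also higher in TMX, and the part of these cells in its value was not tested.

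Genes of cytotoxic granule proteases, a class of which some members cut gasdermins, were lower in TMX. Gzma fell from 270 to 40.4 FPKM and Gzmb from 33.2 to 3.40 FPKM (q = 0.00112 each) per the authors' deposited table. Both also belong to the T and NK cell markers and make up most of their sum, and the other 13 of these markers summed to 53.5 FPKM in con against 16.8 FPKM in TMX per the authors' deposited table. The lysosomal protease gene Ctsb was at 59.6 against 45.3 FPKM (q = 0.753), and the neutrophil granule genes Elane and Ctsg were listed at 0 in both conditions per the authors' deposited table.

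Of the interleukin-1 family and alarmin genes, 2 of 6 tested were called higher and 0 lower per the authors' deposited table. Over all tested genes, 6.6% were called higher and 5.7% lower. The median log2 difference of the 6 was 1.24. Il1rn, the interleukin-1 receptor antagonist, rose from 0.247 to 29.6 FPKM and the alarmin gene Il33 from 4.86 to 18.5 FPKM (q = 0.00112 each) per the authors' deposited table. The caspase-1 substrates Il18 and Il1b were at 95.0 against 159 FPKM and at 0.0261 against 8.90 FPKM (q = 0.237 and 0.281) per the authors' deposited table. Il1rn and Il1b entered the authors' test through TMX alone, so both had to be higher there. The median of the 6 includes both of them. Myeloid cells are a known source of Il1b, and most of their listed markers were higher in TMX too, but the part of these cells was not tested.

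Of the regulators of gasdermin D, 2 of 17 tested genes were called lower and none higher per the authors' deposited table, beside 5.7% lower and 6.6% higher over all tested genes. Irf1, a transcription factor gene of the interferon response, fell from 132 to 59.8 FPKM (q = 0.0307) per the authors' deposited table. Lamtor2, a Ragulator subunit gene, fell from 20.0 to 7.76 FPKM (q = 0.0222) per the authors' deposited table. Irf2, known to drive Gsdmd transcription, was at 38.9 against 24.7 FPKM (q = 0.442) per the authors' deposited table. The median of -0.20 changed sign, to 0.01, when both conditions were scaled to the same total FPKM.

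Genes of the ESCRT machinery, which removes gasdermin pores from the plasma membrane, gave 2 calls lower and none higher among 15 tested per the authors' deposited table. Over all tested genes, 5.7% were called lower and 6.6% higher. Chmp4c fell from 31.9 to 12.4 FPKM and Chmp5 from 53.9 to 25.7 FPKM (q = 0.00112 and 0.00953) per the authors' deposited table. The median log2 difference was -0.34. Of the genes of necroptosis, the other lytic route, 3 were tested. Of these, 2 were called higher and none lower per the authors' deposited table, beside 6.6% and 5.7% over all tested genes. Mlkl rose from 10.8 to 43.6 FPKM and Ripk3 from 9.91 to 30.8 FPKM (q = 0.00112 and 0.00281) per the authors' deposited table. Zbp1, a nucleic acid sensor gene upstream of them, was at 52.9 against 84.5 FPKM (q = 0.302) per the authors' deposited table. Mlkl, the necroptotic pore gene, stood below Gsdmd in both conditions.

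**Figure D4:**
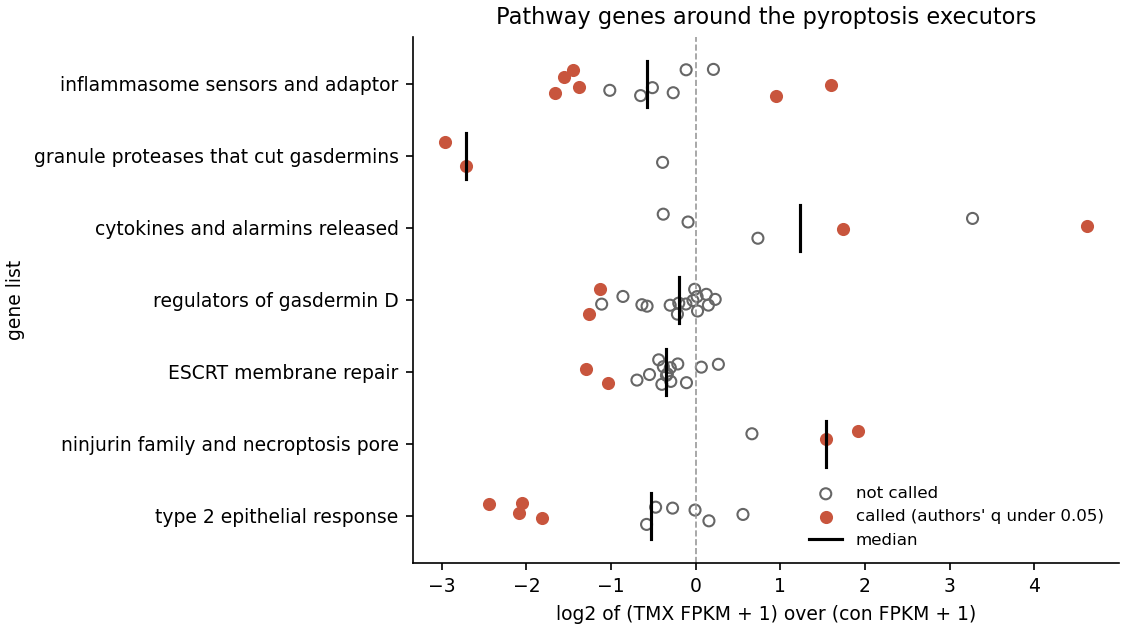
Log2 of (TMX FPKM + 1) over (con FPKM + 1) for the tested genes of 7 lists around the pyroptosis executors; filled points were called per the authors' deposited table, open points were not, and the black bar is the median of the list. The inflammasome, granule protease, regulator, ESCRT and type 2 lists hold calls below -1, and Aim2, Mlkl, Ripk3, Il33 and Il1rn are called above 1.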

How the data were processed

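GRCm38, STAR and Cufflinks stand in the submitters' processing notes without versions or parameters. The deposited values, per the file headers, are 1 FPKM per gene and condition from the authors, their test statistic (a score), p-value, q-value, status and call; the authors' log2 fold change has 1 FPKM added to both values. The lowest p-value in the deposited table is 5e-05. Depth, replicate spread and any fit over libraries could not be had from pooled values, so the course fixed for such a table was taken: a description with no new test. Which libraries entered is not stated.

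The members and the 14 lists were chosen with earlier results of these data known, and 1 further list is not reported here. Named genes were Adar, the 9 members, other Gsdm genes and Ninj2, up to 4 called genes of a list by fold change (all of a list with at most 5 tested), called or nearest tested neighbours within 500 kb, and the 3 genes nearest to a called member. Casp12, Naip5, Mefv, single cell type markers and list genes without a call that are named beside these were chosen after their values were seen, as were the nucleotide comparisons, which took the place of a protein alignment.

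All 55446 gene identifiers were found in GENCODE vM21, the source of coordinates (1-based) and coding sequences. Global alignments used Biopython 1.88; tables used Python 3.11.15 and pandas 2.3.3. Adjustment and sequence steps were tested on simulated data. Alternatives were other pseudocounts, scalings, thresholds and sets of genes adjusted over.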

Additional observations from a re-analysis of the deposited data

How the results depend on the processing

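The direction of the log2 fold change of all 9 genes was the same at pseudocounts of 0.1 and 0.01 FPKM and after scaling to an equal upper quartile or an equal total FPKM. Equal totals shifted the median of all tested genes by 0.18 on the log2 scale. Adjusting over protein-coding genes, over genes with a mean of at least 1 FPKM or over every gene changed no call of a member, and nor did a threshold of 0.01; at 0.1 Gsdmc4, with a q-value of 0.0743, was called. Including the pseudogenes with a symbol beginning Gsdmc, the cluster summed to 366 FPKM in con, and its TMX sum did not move. At 0.01 the calls were 0 higher among other gasdermins, 1 higher and 2 lower among inflammasome genes, 0 lower among regulators of gasdermin D and 2 lower among type 2 genes. Adjusted over genes with a mean of at least 1 FPKM, 0 other gasdermins and 1 inflammasome gene were called higher; Gsdma and Mefv have lower means and left that set. No paired analysis was possible because the values are pooled by condition, and for the same reason leaving out single libraries was not run. Depth is unknown, so what limits the near-zero TMX values was not testable.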
